A study of Mus musculus with 9 samples.

Results

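Intestinal macrophage genes were followed here as a set of 10 named genes in the colon of wild-type (WT) mice: *Csf1r*, *Cx3cr1*, *Adgre1*, *Mrc1*, *Cd163*, *Cd68*, *Lyz2*, *C1qa*, *C1qb* and *C1qc*. They were chosen by name as genes of this cell type and found by their Ensembl identifiers, and all 10 of 10 were present among the 22262 genes that had at least 1 count. Together they held 80 to 203 counted RNA molecules per mouse, which was 0.0237% to 0.0465% of a library. The study asked what a richer housing environment does to the gut of mice, and the comparison used here was WT mice kept in the standard environment (WT_SE, 4 mice) against WT mice kept in the enriched environment (WT_EE, 5 mice). All were female C57BL/6N mice without the human α-synuclein transgene, aged 12 months. The WT_EE mice had lived since weaning in larger cages with more companions, changing objects and running wheels, so that housing, cage group and activity cannot be told apart. One piece of upper colon per mouse was used for RNA. The transgenic mice of the study were not analysed here.

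Macrophages of the colon wall sit beneath the epithelium, where they take up bacteria and dying cells, and in the muscle layer next to the enteric neurons. Most are renewed from blood monocytes, depend on signalling through the receptor that *Csf1r* encodes, and keep *Cx3cr1* on while they mature. Their complement C1q, lysozyme and scavenger receptors serve the clearance of microbes and debris without strong inflammation.

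Each library held 295535 to 454043 molecules, with a median of 362850 in WT_SE and 426436 in WT_EE, counted at the 3′ end of transcripts. At this depth 3 molecules, used here as the floor for detection, correspond to 6.48 to 10.5 CPM (counts scaled to a common library size with TMM factors), and this floor covers counting error only; the 95% intervals of edgeR's log2 fold changes also hold the spread between mice. In whole tissue, fewer macrophages and less RNA per macrophage cannot be told apart. The libraries had the marks of colon wall: the summed level of 8 epithelium markers ran from 3045 to 4217 CPM and that of 6 smooth muscle markers from 1508 to 2841 CPM. The general leukocyte gene *Ptprc* lay between 36.5 and 80.8 CPM. The neutrophil markers *S100a8*, *S100a9*, *Cxcr2*, *Mpo* and *Elane* and the mast cell markers *Cpa3*, *Cma1* and *Ms4a2* were not listed in any of the 9 libraries. The other markers on these lists had counts. Summed over the 9 libraries these were 59 for *Ly6g*, 2 for *Csf3r* and 2 for *Retnlg* among the neutrophil markers. Among the mast cell markers they were 9 for *Mcpt1*, 9 for *Mcpt2* and 4 for *Tpsb2*. The pieces were not all alike. *Slc10a2*, the bile acid transporter whose level depends on the position along the gut, had 26, 103, 110 and 16 counts in WT_SE mice 1, 2, 3 and 5 and 107, 3, 117, 4 and 10 counts in WT_EE mice 1 to 5. *Hoxb13*, a gene of the posterior body, had 4, 0, 0 and 56 counts in WT_SE mice 1, 2, 3 and 5. In WT_EE mice 1 to 5 it had 0, 45, 21, 24 and 20 counts. *Adipoq*, a fat cell gene, had 70 counts in WT_SE mouse 1 and at most 29 in any other mouse.

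All 10 macrophage genes had a mean that was lower in WT_EE than in WT_SE, but none passed the test and for none were the values of the groups apart. The median log2 fold change of the 10 genes was -0.22, against 0.01 over the 17441 genes tested. The mean levels ran from 98.7 CPM in WT_SE for *Lyz2* to 3.60 CPM in WT_EE for *Cd163*. Errors after ± are SDs over the 4 or 5 mice of a group. The plot of levels by mouse shows how widely the mice of 1 group were scattered around these means.

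**Figure D1:**
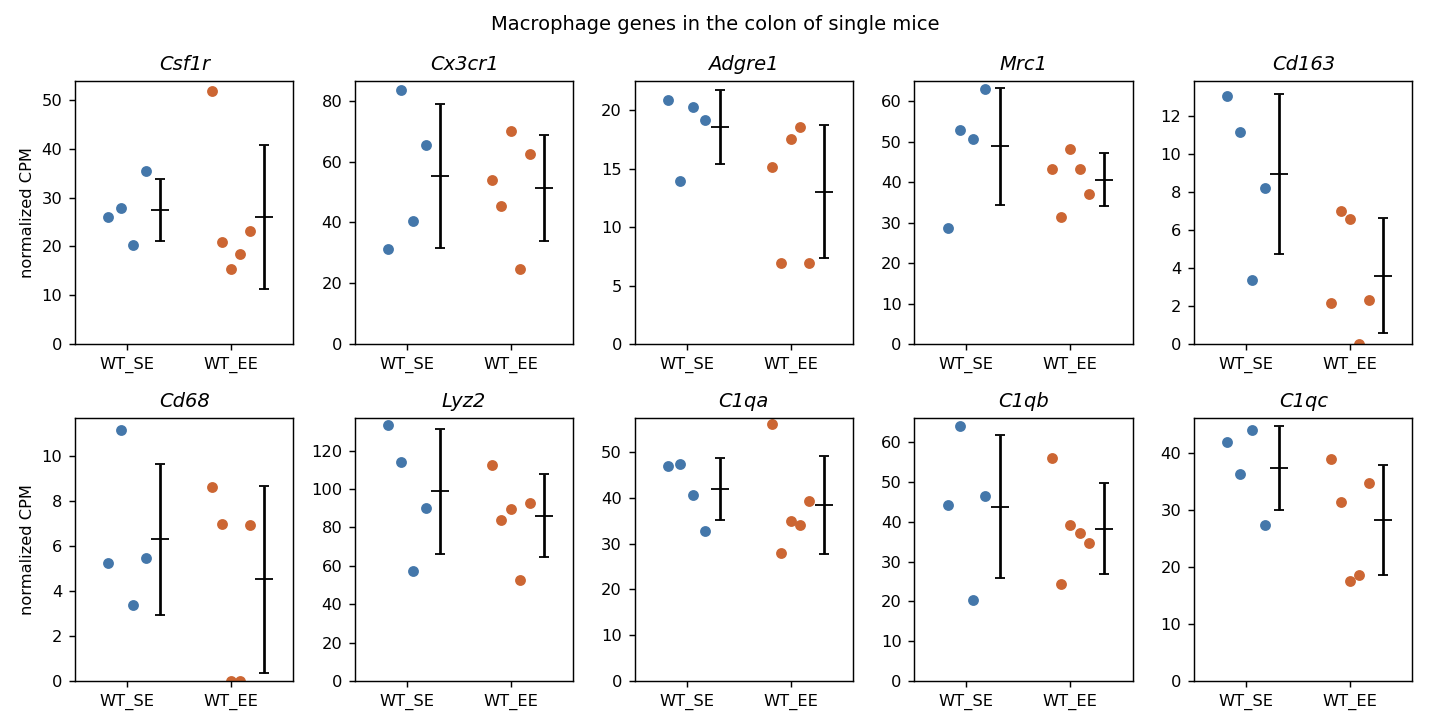
Normalized level (CPM, linear axis from 0) of each macrophage gene in each of the 4 WT_SE mice (blue) and 5 WT_EE mice (orange), in order of mouse number from left to right within a group, with the group mean and SD in black. The groups overlap for all 10 genes, and WT_EE mouse 1 stands at 51.8 CPM for *Csf1r*.

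Among the receptors that mark the lineage, *Csf1r* encodes the receptor for the growth factors CSF1 and IL-34, on which macrophages depend for survival. Its counts were 10, 10, 6 and 13 in WT_SE mice 1, 2, 3 and 5, and 24, 6, 7, 6 and 10 in WT_EE mice 1 to 5. WT_EE mouse 1 was the highest of all, and the other WT_EE mice lay between 15.3 and 23.1 CPM. The mean level was 27.4 ± 6.29 CPM over the 4 WT_SE mice and 25.9 ± 14.8 CPM over the 5 WT_EE mice. The log2 fold change was -0.05 (SE 0.36, edgeR adjusted p = 0.985, exact permutation p = 0.897), and it turned to between 0.0052 and 0.11 when WT_SE mouse 5 or any of WT_EE mice 2 to 5 was left out. The gene lies at chr18:61100598-61132149 (GRCm38, plus strand) and overlaps *Hmgxb3* on the other strand, which had 163 counts.

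*Cx3cr1*, the receptor for the membrane-bound chemokine fractalkine, had 12, 30, 12 and 24 counts in WT_SE mice and 25, 13, 32, 8 and 27 counts in WT_EE mice. High and low mice occurred in both groups. The mean level was 55.3 ± 23.8 CPM over the 4 WT_SE mice and 51.3 ± 17.5 CPM over the 5 WT_EE mice, with a log2 fold change of -0.07 (SE 0.28, edgeR adjusted p = 0.966, exact permutation p = 0.786). The spread between mice of 1 group was 2.76 times the variance that counting alone gives, the largest ratio of the 10 genes. The annotated gene at chr9:119901616-120069879 (GRCm38, minus strand) overlaps 9 other genes, of which *Gorasp1* with 84 counts and *Csrnp1* with 48 counts are on the same strand.

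*Adgre1* encodes the F4/80 antigen used to recognise mouse macrophages. Its counts were 8, 5, 6 and 7 in WT_SE mice and 7, 2, 8, 6 and 3 in WT_EE mice. WT_EE mice 2 and 5 were not above the floor of 3 counts, whereas the other 7 mice lay above it. The mean level was 18.6 ± 3.17 CPM over the 4 WT_SE mice and 13.01 ± 5.67 CPM over the 5 WT_EE mice, with a log2 fold change of -0.48 (SE 0.43, edgeR adjusted p = 0.838, exact permutation p = 0.143). The variance between mice was 0.595 times that of counting, so no spread beyond counting error was detectable for this gene.

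Of the scavenger receptor genes, *Mrc1* encodes the mannose receptor CD206, which binds sugars on microbes and on the body's own glycoproteins. It had 11, 19, 15 and 23 counts in WT_SE mice and 20, 9, 22, 14 and 16 counts in WT_EE mice, so that the lowest WT_SE mouse, mouse 1, was lower than every WT_EE mouse in CPM. The mean level was 48.8 ± 14.4 CPM over the 4 WT_SE mice and 40.6 ± 6.48 CPM over the 5 WT_EE mice, with a log2 fold change of -0.24 (SE 0.27, edgeR adjusted p = 0.888, exact permutation p = 0.270).

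*Cd163* encodes the receptor that takes up haemoglobin bound to haptoglobin. Its counts were 5, 4, 1 and 3 in WT_SE mice and 1, 2, 3, 0 and 1 in WT_EE mice. Only WT_SE mice 1 and 2 were above the floor, and all 5 WT_EE mice were at or under it. The mean level was 8.94 ± 4.21 CPM over the 4 WT_SE mice and 3.60 ± 3.03 CPM over the 5 WT_EE mice. The log2 fold change was the most negative of the 10, -1.29 (SE 0.72, edgeR adjusted p = 0.698, exact permutation p = 0.0556), with a 95% interval of -2.74 to 0.16. With 20 molecules in all 9 libraries, *Cd163* passed an unadjusted threshold of p under 0.05 in limma-voom, with a log2 fold change of -1.27, and in edgeR without WT_SE mouse 3, with -1.51; the adjusted p-values were 0.626 and 0.941.

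*Cd68* and *Lyz2* belong to the lysosome and to the bacteria-killing equipment of the cell. *Cd68*, a glycoprotein of the lysosome membrane, had 2, 4, 1 and 2 counts in WT_SE mice and 4, 2, 0, 0 and 3 counts in WT_EE mice. It was above the floor in WT_SE mouse 2 and WT_EE mouse 1 only, so that a difference was not detectable at this depth: the log2 fold change was -0.46 with a 95% interval of -2.03 to 1.12.

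*Lyz2*, lysozyme M, which cuts the cell wall of bacteria, was the most abundant of the 10 genes. It had 51, 41, 17 and 33 counts in WT_SE mice and 52, 24, 41, 17 and 40 counts in WT_EE mice. WT_SE mouse 3 and WT_EE mouse 4 were the low ones. The mean level was 98.7 ± 32.6 CPM over the 4 WT_SE mice and 86.1 ± 21.6 CPM over the 5 WT_EE mice, with a log2 fold change of -0.19 (SE 0.22, edgeR adjusted p = 0.891, exact permutation p = 0.476). *Lyz2* (chr10:117277331-117282321, GRCm38, minus strand) lies beside its paralog *Lyz1*, the lysozyme of Paneth cells. Of the 50-base words in the last 500 bases of *Lyz2* transcripts, 16.9% also occur in *Lyz1*, so the counting could have lost or moved some reads; *Lyz1* itself had 0 to 3 counts per mouse.

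*C1qa*, *C1qb* and *C1qc* encode the chains from which C1q, the recognition molecule of the classical complement pathway, is built. They lie side by side on the minus strand within 18675 bases at chr4:136880129-136898803 (GRCm38), in the order *C1qb*, *C1qc*, *C1qa* by coordinate. *C1qa* had 18, 17, 12 and 12 counts in WT_SE mice and 26, 8, 16, 11 and 17 counts in WT_EE mice. *C1qb* had 17, 23, 6 and 17 counts in WT_SE mice and 26, 7, 18, 12 and 15 counts in WT_EE mice. *C1qc* had 16, 13, 13 and 10 counts in WT_SE mice and 18, 9, 8, 6 and 15 counts in WT_EE mice. WT_EE mouse 1, the largest library, had the most counts of each chain. In CPM the highest was WT_EE mouse 1 for *C1qa* (56.1), WT_SE mouse 2 for *C1qb* (64.0) and WT_SE mouse 3 for *C1qc* (44.0). The lowest mouse was not the same for the 3 chains either. The mean level of *C1qa* was 41.9 ± 6.83 CPM over the 4 WT_SE mice and 38.5 ± 10.7 CPM over the 5 WT_EE mice, with a log2 fold change of -0.09 (SE 0.28, edgeR adjusted p = 0.962). For *C1qb* the means were 43.8 ± 18.0 and 38.3 ± 11.5 CPM and the log2 fold change was -0.18 (SE 0.29, edgeR adjusted p = 0.925). For *C1qc* the means were 37.3 ± 7.41 and 28.2 ± 9.67 CPM and the log2 fold change was -0.38 (SE 0.31, edgeR adjusted p = 0.819). The exact permutation p was 0.595 for *C1qa*, 0.595 for *C1qb* and 0.167 for *C1qc*. Together the chains made up 27.1% to 36.3% of the macrophage gene counts of a mouse.

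The stretches of promoter shown next give the sequence context of these genes, from RefSeq (GRCm38.p6), 5′ to 3′ on the strand of the gene. Promoters of 7 of the genes were searched. *C1qa* and *Adgre1* had no promoter entry, and *Csf1r* was left out of the search. The shares over all promoters were not cut in this way. In capitals is ACTTCCT, the reverse complement of AGGAAGT, which has the GGAA core bound by ETS factors such as PU.1, a factor of the macrophage lineage.
Lyz2, chr10:117282354-117282384, minus strand: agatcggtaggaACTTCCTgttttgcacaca
C1qb, chr4:136886235-136886265, minus strand: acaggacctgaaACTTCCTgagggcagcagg
C1qc, chr4:136893091-136893121, minus strand: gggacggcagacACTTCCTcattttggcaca
Mrc1, chr2:14229191-14229221, plus strand: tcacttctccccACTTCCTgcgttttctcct
On either strand, AGGAAGT occurred within the 250 bases before the start of these 4 genes of 7, and in 7.69% of 32851 promoters. It was picked after its matches had been seen, out of 10 motifs tried, so the share among the macrophage genes is a description and no sign of enrichment. The other motifs overlap it in part. GAGGAA was held by 4 of the 7 genes and 23.3% of all promoters. Both GGAA (93.4% of promoters) and CANNTG (66.2%) were held by all 7 genes. TGCTGA was held by 2 genes (16.1% of promoters), GAGGAAGT by 1 (2.44%) and TGACTCA by 1 (4.46%). Of the 3 held by none of the genes, CACGTG was in 6.02% of promoters, TATAA in 22.8% and TTGCGCAA in 0.164%.

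Across all genes, edgeR's quasi-likelihood test called 7.65% of the 17441 genes tested at an unadjusted p under 0.05 in either direction, and 3.34% as lower in WT_EE. It called 0 of the 10 macrophage genes in either direction; DESeq2 called 0 and limma-voom called 1, *Cd163*. At an adjusted p under 0.05, edgeR called 0.0401% of all genes and none of the 10. The groups did not overlap for 2.58% of all genes tested and for 0 of the 10. A log2 fold change below 0 was found for 10 of the 10 genes and for 48.9% of all genes. Among the 9736 genes in the same range of mean counts the share below 0 was 45.7% and the median log2 fold change 0.04. The 10 genes are not independent readings, as they come from the same mice and largely from the same cells, and this count was taken up after the directions had been seen. The count below 0 was 8 without WT_SE mouse 2, WT_SE mouse 5 or WT_EE mouse 4, and 7 with *Slc10a2* as a covariate and all mice kept, where *Csf1r*, *Cx3cr1* and *C1qa* had 0.0292, 0.0586 and 0.0162. The upper ends of the 95% intervals were 0.25 for *Lyz2* and *C1qc*, 0.30 for *Mrc1* and 0.41 for *C1qb*, and the lower ends were -0.63, -1.01, -0.78 and -0.77.

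**Figure D2:**
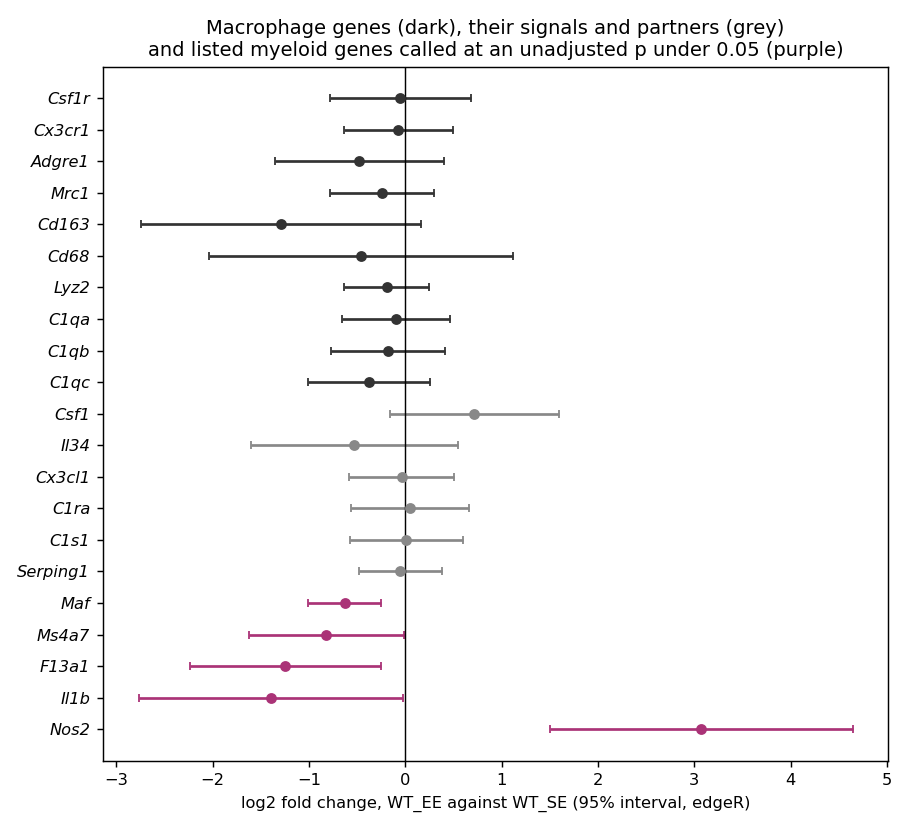
Log2 fold change of WT_EE against WT_SE with its 95% interval (edgeR) for the 10 macrophage genes (dark), for the genes of their ligands and of C1q partners (grey) and for the listed myeloid genes called at an unadjusted p under 0.05 (purple). All 10 dark points lie left of 0 and all 10 intervals include 0; the size for *Nos2* depends on the prior count of the fit.

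The summed level of the 10 genes was 392, 462, 301 and 394 CPM in WT_SE mice 1, 2, 3 and 5, and 438, 286, 339, 247 and 340 CPM in WT_EE mice 1 to 5. The highest mouse was in WT_SE and the lowest in WT_EE, but WT_EE mouse 1 lay above 3 of the 4 WT_SE mice and WT_SE mouse 3 below 3 of the 5 WT_EE mice. The means were 387 ± 66.1 CPM over the 4 WT_SE mice and 330 ± 71.9 CPM over the 5 WT_EE mice, so that WT_EE stood at 85.3% of WT_SE. Without *Lyz2* it stood at 84.6%. *Lyz2* gave 26.0% of the counts of the set, *Cx3cr1* 15.05%, *Mrc1* 12.3%, *C1qb* 11.6% and *C1qa* 11.3%, while *Cd163* and *Cd68* gave 1.64% and 1.48%.

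**Figure D3:**
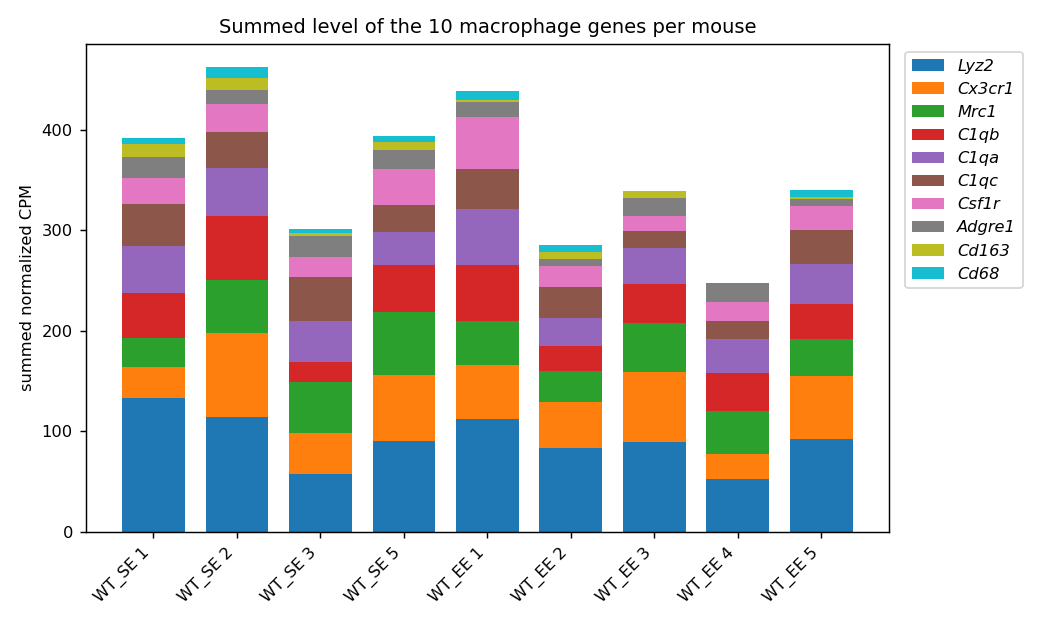
Summed normalized level (CPM, bars from 0) of the 10 macrophage genes in each mouse, stacked by gene. Bars run from 247 CPM in WT_EE mouse 4 to 462 CPM in WT_SE mouse 2, with *Lyz2* as the largest layer of the sum over mice.

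The 2 mice with the lowest sums also differed from the others in features of their pieces. WT_EE mice 2 and 4, with the lowest sums, had 2841 and 2839 CPM of the 6 smooth muscle genes, whereas the other 7 mice had 1508 to 1974 CPM. *Slc10a2* had 3 and 4 counts in WT_EE mice 2 and 4. WT_SE mouse 3, with the next lowest sum of 301 CPM, had 1664 CPM of the smooth muscle genes and 110 counts of *Slc10a2*. WT_SE mouse 5 and WT_EE mouse 5 had 16 and 10 counts of *Slc10a2* and sums of 394 and 340 CPM. A relation of the sum with these features over all mice was not tested. All 6 smooth muscle genes had a higher mean in WT_EE and 2 of them, *Acta2* and *Des*, were called at an unadjusted p under 0.05. Their edgeR adjusted p-values were 0.649 and 0.580 and their exact permutation p-values 0.278 and 0.246. Of the 17441 genes tested, 751 were called higher and 48.9% were below 0. WT_EE mice 1, 3 and 5 had 1587, 1508 and 1925 CPM of the 6 genes, and the WT_SE mice 1540 to 1974 CPM. Depth differed too: the libraries of WT_SE mouse 3 and of WT_EE mice 2 and 4 were the smallest, and they had the lowest sums. Over the 9 mice the log2 sum of counts changed by 1.81 per unit of log2 library total, where 1 would mean in proportion. Genes with a mean of 10 to 20 counts changed by 1.35 and those with 80 to 150 counts by 0.54 per unit. With library total as a covariate all 10 genes had a log2 fold change below 0, from -1.46 for *Cd163* to -0.26 for *C1qa*. With *Slc10a2* as a covariate 7 of the 10 were below 0. No fit held muscle content as a covariate. The part of muscle content, position of the piece and depth in the macrophage gene values was not tested beyond these figures.

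**Figure D4:**
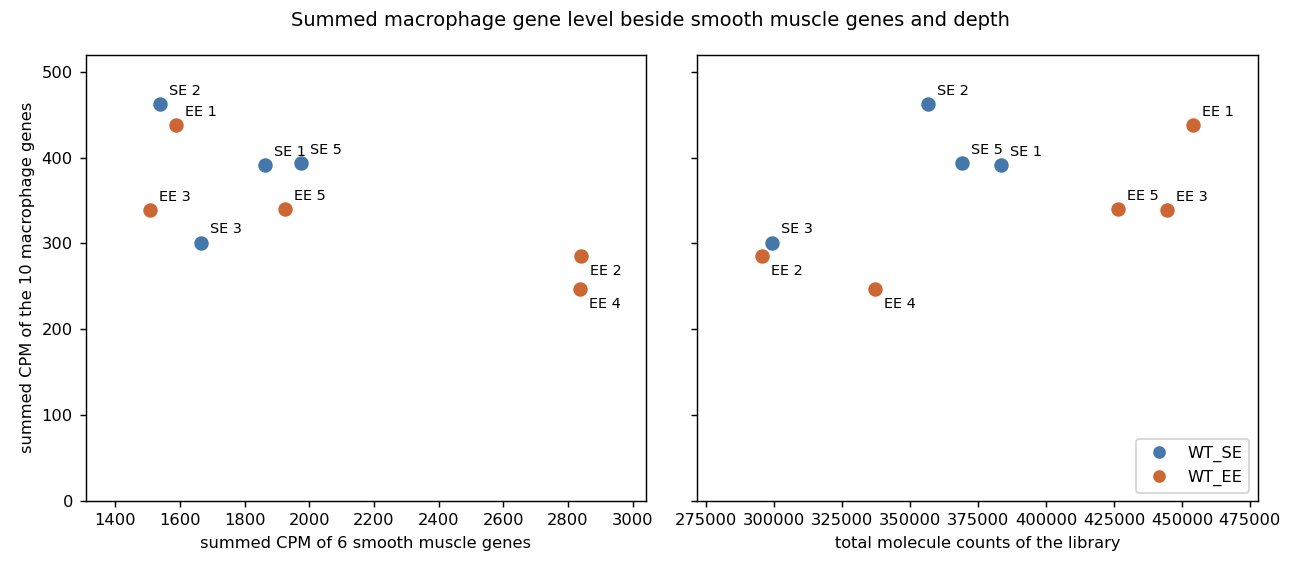
Summed level of the 10 macrophage genes (CPM) in each mouse against the summed level of 6 smooth muscle genes (CPM, left) and against the total molecule count of the library (right); the horizontal axes do not start at 0. WT_EE mice 2 and 4 lie apart on the left at 2841 and 2839 CPM, and the 3 smallest libraries have the 3 lowest sums.

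Ordered by their mean over the 9 mice, the levels in CPM were *Lyz2* 91.7, *Cx3cr1* 53.1, *Mrc1* 44.2, *C1qb* 40.8, *C1qa* 40.01, *C1qc* 32.2, *Csf1r* 26.6, *Adgre1* 15.5, *Cd163* 5.97 and *Cd68* 5.31. As 1 molecule was counted at the 3′ end of each transcript, these levels need no division by length, though priming and mapping can differ between genes. *Lyz2* was above *Cx3cr1* in 9 of 9 mice (exact sign-flip permutation p = 0.0039, adjusted over 9 neighbouring pairs p = 0.0352). *Adgre1* was above *Cd163* in 8 mice with 1 tie (exact permutation p = 0.0078, adjusted p = 0.0352). None of the other 7 neighbouring pairs passed after adjustment, with exact permutation p-values adjusted to between 0.0703 and 0.883. Before adjustment these were 0.027 for *C1qa* over *C1qc* and 0.031 for *Csf1r* over *Adgre1*, so equal levels are not shown. The pairs were set by the means of the same values that were tested, so the p-values only describe the order.

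The genes varied together from mouse to mouse only in part. Of 45 pairs, 35 had a correlation of log2 CPM above 0 across the 9 mice, the median was 0.28 and the range -0.44 to 0.76; all pairs share the same libraries and their depth. For 6 relations tests were made. *Cd68* and *Csf1r* had r = 0.67 (exact permutation p = 0.0480, Benjamini-Hochberg adjusted over 6 relations p = 0.218; Spearman's rho = 0.76, exact permutation p = 0.0219, adjusted p = 0.131), and r fell to 0.40 without the 2 mice farthest from the median. *C1qa* had r = 0.57 with *C1qb* (rho = 0.50) and r = 0.58 with *C1qc* (rho = 0.68), while *C1qb* and *C1qc* had r = -0.04 (rho = -0.02). *Mrc1* and *Cd163* had r = -0.06 and *Adgre1* and *Cx3cr1* had r = -0.29 (rho = 0.05 and -0.45). Without the 2 mice farthest from the median of the first gene, r was 0.24 for *C1qa* and *C1qb*, 0.76 for *C1qa* and *C1qc*, 0.21 for *C1qb* and *C1qc*, 0.18 for *Mrc1* and *Cd163* and -0.64 for *Adgre1* and *Cx3cr1*. None of the 6 passed the exact permutation test after adjustment: for r the p-values ran from 0.0480 to 0.919 (adjusted 0.218 to 0.919) and for rho from 0.0219 to 0.982 (adjusted 0.131 to 0.982).

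**Figure D5:**
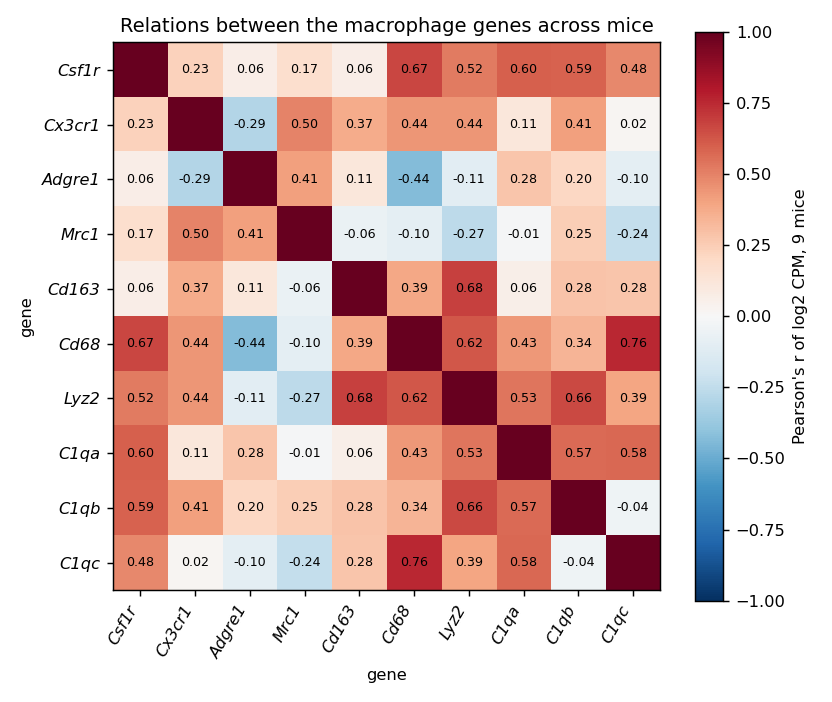
Pearson's r of log2 CPM between each pair of the 10 macrophage genes across 9 mice (colour scale from -1 to 1). The median of the 45 pairs is 0.28, and the values run from -0.44 to 0.76.

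The pattern most like the mean of the macrophage genes was looked for among 8486 genes with a mean of at least 10 counts. *Rhbdd2* (r = 0.93), *Zdhhc9* (r = 0.92), *Hook2* (r = 0.92), *Tmem42* (r = 0.92) and *Tmed4* (r = 0.90) came first over the 9 mice. Of the listed macrophage and leukocyte genes, *Irf8*, a transcription factor of the myeloid lineage, was at rank 26 (r = 0.83) and *Ptprc* at rank 79 (r = 0.77). *Maf* and *Mertk*, a receptor for dying cells, had r = 0.69 and 0.61, whereas the protease gene *Ctss* had r = -0.32. As a description over 9 mice that share depth and tissue content with the macrophage genes, these values carry no test.

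The ligands of the macrophage receptors were measured in the same libraries. *Csf1* had 4, 6, 3 and 4 counts in WT_SE mice and 14, 4, 9, 4 and 9 counts in WT_EE mice, so that WT_EE mice 1, 3 and 5 were the highest. Its mean was 12.1 ± 3.12 CPM over the 4 WT_SE mice and 19.4 ± 7.04 CPM over the 5 WT_EE mice, with a log2 fold change of 0.72 (SE 0.43, edgeR adjusted p = 0.738, exact permutation p = 0.0952). *Il34*, the other ligand of the same receptor, had a log2 fold change of -0.53 (SE 0.53, edgeR adjusted p = 0.859) and *Cx3cl1*, fractalkine, of -0.04 (SE 0.27, edgeR adjusted p = 0.985). The C1 proteases *C1ra* and *C1s1*, which C1q activates, and *Serping1*, their inhibitor, had log2 fold changes of 0.05, 0.01 and -0.05 (SE 0.30, 0.29 and 0.21), and the first 2 changed sign under another scaling. None of these 6 genes was called by edgeR, adjusted or not.

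Of 28 other genes of resident macrophages, 24 were tested: 19 had a log2 fold change below 0 with a median of -0.19, 2 were called lower at an unadjusted p under 0.05 and 0 higher. Of all genes tested 48.9% were below 0, 3.34% were called lower and 7.65% in either direction. The 2 were *Maf*, a transcription factor of resident macrophages that lymphocytes also use, and *Ms4a7*, a membrane protein gene. *Maf* had 75, 61, 55 and 43 counts in WT_SE mice and 75, 29, 48, 26 and 36 counts in WT_EE mice. Its mean was 167 ± 34.8 CPM over the 4 WT_SE mice and 106 ± 32.9 CPM over the 5 WT_EE mice, with a log2 fold change of -0.63 (SE 0.19, edgeR adjusted p = 0.240, exact permutation p = 0.0397). The groups overlapped, and the unadjusted call was lost without WT_SE mice 1 and 3 together, at -0.40, and with the library-name ending, which sets those 2 apart, as a covariate, at -0.41. *Ms4a7* had 6, 11, 10 and 11 counts against 4, 4, 12, 6 and 4, with a log2 fold change of -0.82 (SE 0.40, edgeR adjusted p = 0.634, exact permutation p = 0.0476), and lost the call without any 1 of WT_SE mice 2, 3 and 5 and WT_EE mice 1, 2 and 5, at -0.64 to -0.79. It also lost it with DESeq2 (-0.85), with library total (-0.72) or *Slc10a2* (-0.70) as a covariate and without WT_EE mice 2 and 4 together (-0.87). *Marco* had 0 counts in all libraries, and *Fcgr1*, *Trem2*, *Siglec1* and *Timd4* were never above the floor.

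Of 6 monocyte genes 5 were tested. *F13a1*, the gene of a coagulation factor chain made by monocytes and some tissue macrophages, was called lower at the unadjusted threshold. The share called lower over all genes tested was 3.34%. It had 9, 5, 8 and 6 counts in WT_SE mice and 5, 4, 1, 4 and 2 counts in WT_EE mice, with means of 20.2 ± 6.10 CPM over the 4 WT_SE mice and 8.78 ± 5.11 CPM over the 5 WT_EE mice. The log2 fold change was -1.25 (SE 0.49, edgeR adjusted p = 0.472, exact permutation p = 0.0238), and the call was lost without WT_EE mouse 3 (-0.97), without WT_SE mice 1 and 3 together (-0.84), and with the library-name ending (-0.85) or the library total (-0.996) as a covariate. *Ccr2*, the receptor that brings monocytes into tissue, had a log2 fold change of 0.42 and *Ly6c2* of -0.32, and neither was called.

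Of 9 genes of macrophage effector functions 6 were tested and 5 were never above the floor, among them *Il10*, *Il6* and *Il12b*. *Il1b* had 8, 5, 0 and 5 counts in WT_SE mice and 0, 1, 2, 2 and 4 in WT_EE mice, with a log2 fold change of -1.40 (SE 0.68, edgeR adjusted p = 0.641, exact permutation p = 0.119). Its unadjusted call was lost without any 1 of WT_SE mice 1, 2 and 5 and WT_EE mice 1, 2 and 3, at -1.01 to -1.37. It was also lost with DESeq2 (-1.42), limma-voom (-1.13) and the ending as a covariate (-1.52), and without WT_SE mice 1 and 3 together (-1.51) or WT_EE mice 2 and 4 together (-1.45). *Nos2*, the inducible nitric oxide synthase gene, which epithelial cells also express, went the other way. It had 1, 1, 0 and 0 counts in WT_SE mice and 6, 3, 5, 9 and 5 counts in WT_EE mice. All WT_SE mice were thus under the floor of 3 counts. The groups did not overlap (exact permutation p = 0.0079, the smallest that 4 against 5 mice allow). Of all genes tested, 2.58% had groups that did not overlap, and 7.65% were called in either direction at the unadjusted threshold. Over the pooled counts, 28 against 2, the ratio of WT_EE to WT_SE was 10.1 with a counting interval of 2.54 to 87.2. This interval holds counting error only and no spread between mice. The edgeR adjusted p for *Nos2* was 0.139.

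Markers of neighbouring cells were also listed. Of 4 peritoneal macrophage markers *Cxcl13* and *Prg4* were called lower at the unadjusted threshold; *Cxcl13* had between 5 and 26 counts per WT_SE mouse and between 0 and 14 per WT_EE mouse, and *Prg4* had 5 counts in WT_SE mouse 1 and 0 elsewhere. The list summed to 125.7 to 231 CPM in WT_SE and 105 to 158 CPM in WT_EE. Most of this sum was *Gata6*, with a mean of 120 CPM in WT_SE and 112 CPM in WT_EE, and it was not called. Over all mice *Gata6* had a mean of 115 CPM, beside 48.0 CPM for the leukocyte gene *Ptprc*. Which cells held the *Gata6* RNA was not tested, so the sum is no measure of peritoneal macrophages. *Alox15* had 12 counts in all libraries together. The 8 adipocyte markers summed to 80.8 to 906 CPM in WT_SE and 125 to 476 CPM in WT_EE, and 1, *Plin1*, was called lower. Of 9 lymphocyte markers, with sums of 271 to 383 CPM in WT_SE and 271 to 365 CPM in WT_EE, 2 were called lower. *Ms4a1* had 9, 6, 1 and 0 counts in WT_SE mice and 2, 0, 1, 0 and 2 in WT_EE mice. *Cd79b* had 3, 1, 0 and 0 counts in WT_SE mice and 0 in all WT_EE mice. Most of the sums was *Jchain*, with a mean of 306.5 CPM in WT_SE and 306.5 CPM in WT_EE. Of all genes tested, 3.34% were called lower at this threshold. Of 7 dendritic cell markers, with sums of 15.7 to 44.6 CPM and 20.9 to 34.0 CPM, none was called. Their part in the macrophage gene values was not tested.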

How the data were processed

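RNA from 9 colon pieces was prepared with QuantSeq 3′ FWD, which reads the 3′ ends of transcripts. Per the labels the authors used fastp 0.20.0, STAR 2.7.0f and featureCounts 1.6.0 on GRCm38.p6, and UMI-tools, and the deposited counts are molecules per Ensembl gene. Strand use in counting is not given in the sources used here. Samples were grouped by title. Genes that reached 4 CPM in 1 library or more were kept, scaled by TMM and tested with edgeR 4.0.16 (quasi-likelihood, Benjamini-Hochberg over all genes; common biological coefficient of variation 15.1%). For named genes two-sided exact permutation tests over the 126 splits of 4 against 5 mice were added; their smallest p is 0.0079. DESeq2 1.42.0 and limma 3.58.1 were alternatives. The fit was tested on simulated data. The members and lists were chosen with earlier results of these data known. Named were the members, the ligand and C1 genes, and listed genes called at p under 0.05 with counts above the floor, and the 5 genes most like the members. Some other listed genes were named to show what a list held. Chosen after values were seen were the count of members below 0, the tests of level order, the count variance ratios, the depth figures, the comparison with genes of like counts, the promoter motif, and 4 alternatives (scaling on mid-count genes, library total or *Slc10a2* as a covariate, WT_EE mice 2 and 4 left out). Mice were housed in groups, and which of these mice shared a cage is not given in the sources used here. The p-values therefore measure only the spread between mice that may share a cage.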

Additional observations from a re-analysis of the deposited data

Results flagged for a closer look

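Among 44 groups of values examined, 3 held a mouse far from the rest of its group by Dixon's criterion, and chance alone gives about 2.2 at 1 in 20. *Csf1r* in WT_EE mouse 1 was 51.8 CPM (24 counts), where the other WT_EE mice lay between 15.3 and 23.1 CPM. *Csf1*, the gene of its ligand, was 16.7 CPM (6 counts) in WT_SE mouse 2, where the other WT_SE mice lay between 10.1 and 10.9 CPM. *Nos2* in WT_EE mouse 4 was 27.8 CPM (9 counts), where the other WT_EE mice lay between 10.5 and 12.95 CPM.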

How the results depend on the processing

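The 10 macrophage genes had 226 values under 23 alternatives; 209 were negative, 2 passed the unadjusted threshold, both for *Cd163*, and 0 passed after adjustment (lowest adjusted p = 0.558). With limma-voom and without WT_SE mouse 3 the number called was 1 in place of 0. Genes with a log2 fold change below 0 numbered 10 in 13 alternatives, 7 with *Slc10a2* as a covariate, 6 of the 6 that filterByExpr kept, and 8 to 10 when 1 mouse was left out. The summed level of WT_EE ran from 78.3% to 91.2% of WT_SE when 1 mouse was left out, and was 77.1% without WT_SE mice 1 and 3. Without WT_EE mice 2 and 4 these values were 7 genes and 96.2%, but those mice have the lowest sums, so leaving them out raises WT_EE by construction.

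Of all genes, 804 passed the unadjusted threshold with filterByExpr, 643 with DESeq2, 688 with a covariate for the ending of the library name (2 libraries, WT_SE mice 1 and 3, end in L3) and 680 without those 2, against 1334, and 899 to 1581 when 1 mouse was left out. After adjustment 7 genes passed; 143 passed with no filter, 38 with library total as a covariate, 3 without WT_EE mice 2 and 4, 2 with *Slc10a2* as a covariate, and 0 with filterByExpr, DESeq2, limma-voom, the ending as a covariate or WT_SE mice 1 and 3 left out. Leaving out 1 mouse gave 0 (WT_SE mouse 3) to 48 (WT_EE mouse 1), so these numbers rest on single mice. Of the genes called, 43.7% were lower in WT_EE, and 55.0% with upper quartile scaling and 54.8% without WT_EE mice 2 and 4. The cause of these shifts was not tested.

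Mouse numbers did not pair the mice: same-numbered mice correlated at -0.02 to 0.08. With the number as a replicate block 70 genes passed after adjustment, and log2 fold changes turned to 0.0025 for *Csf1r*, 0.12 for *Cx3cr1* and -0.0784 for *C1s1*, while *Il1b*, at -1.42, no longer passed the unadjusted threshold. With *Slc10a2* as a covariate they turned to 0.0292 (*Csf1r*), 0.0586 (*Cx3cr1*), 0.0162 (*C1qa*), 0.0622 (*Cx3cl1*) and -0.28 (*C1s1*). Without WT_EE mice 2 and 4 they turned to 0.12 (*Csf1r*), 0.16 (*Cx3cr1*), 0.0515 (*C1qa*), 0.10 (*Cx3cl1*) and -0.13 (*C1s1*), and *Csf1*, at 0.95, passed the unadjusted threshold. Other settings moved values down: with the ending as a covariate *Cx3cr1* was at -0.50, *Mrc1* at -0.49 and *C1qb* at -0.49, and without WT_SE mice 1 and 3 they were at -0.48, -0.48 and -0.47. *C1ra* turned to -0.0031 with upper quartile scaling, -0.24 with the ending as a covariate, -0.23 without WT_SE mice 1 and 3 and -0.31 with library total as a covariate. *C1s1* turned to -0.0323 with upper quartile scaling, -0.0261 with the ending, -0.0151 without WT_SE mice 1 and 3 and -0.0190 with scaling on mid-count genes. Leaving out 1 mouse turned values within ranges of -0.50 to 0.11 (*Csf1r*), -0.28 to 0.20 (*Cx3cr1*), -0.38 to 0.0547 (*C1qb*), -0.20 to 0.12 (*Cx3cl1*), -0.24 to 0.22 (*C1ra*), -0.19 to 0.29 (*C1s1*) and -0.21 to 0.16 (*Serping1*). At 295535 to 454043 molecules per library, *Cd163* and *Cd68* stayed at or under 3 counts in most mice, and the intervals of the other genes allow changes of over 1.5 times in at least 1 direction.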

Other observations

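*Ly6g*, the gene of a neutrophil surface antigen, was called higher in WT_EE at an unadjusted p under 0.05 (edgeR adjusted p = 0.603, exact permutation p = 0.603). It had 35 counts in WT_EE mouse 2 and 0 to 9 in each WT_SE mouse, although 5 of 8 neutrophil markers had no count in any library. WT_EE mouse 2 also had 45 counts of *Hoxb13*, a gene of the posterior body. The other counts of *Hoxb13* were 4, 0, 0 and 56 in WT_SE mice 1, 2, 3 and 5. In WT_EE mice 1, 3, 4 and 5 they were 0, 21, 24 and 20.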
